A study of Mus musculus with 6 samples.

Results

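Mural cells are the smooth muscle cells and pericytes that wrap blood vessels. The genes described here are 10 markers of these cells and of contractile filaments: Acta2, Tagln, Cnn1, Cnn2, Cald1, Tpm2, Myl9, Des, Pdgfrb and Kcnj8. They were taken by gene symbol, whatever their values, and all 10 were found among the 18956 genes of a bulk RNA sequencing table of mouse lung endothelial cells. The table holds 3 libraries labelled WT and Cre-negative, here WT 1 to 3, and 3 labelled Cre-positive CSE-KO, here CSE-KO 1 to 3. CSE is cystathionine gamma-lyase, an enzyme that releases cysteine from cystathionine and is encoded by Cth. The sources used here do not give the Cre driver, the deleted part of Cth, the strain or age of the mice, the culture of the cells, or whether replicates came from separate animals. The comparison covers how the libraries labelled CSE-KO differed from those labelled WT, in a study whose title places it in work on cystine use, histone acetylation and vascular growth.

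In smooth muscle, contraction is switched on when myosin light chain kinase phosphorylates the regulatory light chain (Myl9) and myosin pulls on filaments of smooth muscle actin (Acta2). Tropomyosin, caldesmon, calponin and transgelin bind along these filaments and stabilise them or restrain the motor, and desmin forms the intermediate filaments that tie them together. Many of these genes are driven by serum response factor (SRF), which binds a short DNA element called the CArG box together with myocardin-related coactivators. Pericytes are held on capillaries by PDGF-B, released by endothelial cells, which acts on the receptor encoded by Pdgfrb. They also carry an ATP-sensitive potassium channel built from Kcnj8 and Abcc9. Endothelial cells express several non-muscle members of the same families.

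Values are normalized counts, that is read counts divided by a factor for each library and rounded, a unit inferred from the values. They are given per library or, over the 3 libraries of a group, as mean ± SD (n = 3). P-values are two-sided, from limma, and adjusted by the Benjamini-Hochberg method over all 13750 tested genes. Library totals lay between 6028772 and 6052275 in WT and between 5698922 and 5765008 in CSE-KO. Cth itself was at 29, 27 and 26 in WT 1 to 3, against 49, 43 and 63 in CSE-KO 1 to 3, higher in the libraries labelled CSE-KO. That goes against the label, although reads from exons outside a deletion are included, so directions are those between the labels. An index of the difference between 2 libraries, which counting noise alone puts at 1 in raw counts, was 0.668 to 0.719 within WT. It was 0.831 for CSE-KO 2 and 3, above every WT pair, and 1.789 and 2.106 for CSE-KO 1 against these. The value that noise alone gives in normalized counts was not determined, so the index only ranks the pairs. Since nothing says that libraries came from separate animals, p-values measure the spread between libraries, possibly a technical one. With WT counted as 1 sample and CSE-KO 2 and 3 as 1 sample, 8225 genes were called in place of 10639, with the spread taken from the CSE-KO libraries alone.

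Most of the contractile genes were higher, and Pdgfrb and Kcnj8 were lower, in the libraries labelled CSE-KO. Of the 10 genes, 7 rose (Acta2, Tagln, Cnn1, Cnn2, Cald1, Myl9 and Des), 2 fell (Pdgfrb and Kcnj8) and Tpm2 did not pass. The rises ran from 1.04-fold in Cnn2 to 12.8-fold in Des, and Kcnj8 was 13.7-fold lower. Of all tested genes, 77.4% were called, 38.3% upward and 39.0% downward, so that 9 called genes of 10 is close to the background of this comparison. Values of the groups did not overlap in any of the 10 genes, 8 upward and 2 downward, against 80.4% of all tested genes (40.0% upward and 40.4% downward). The median log2 fold change of the 10 was 0.41, against 0.00 for all tested genes. The rise of Cnn2 (adjusted p = 0.046) lost its call whenever any library was left out (adjusted p between 0.051 and 0.144), which left 6 that rose. Its log2 fold change was 0.06 with WT counted as 1 sample and CSE-KO 2 and 3 as 1 sample. In bulk RNA, more cells of a type and more RNA per cell cannot be told apart.

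**Figure D1:**
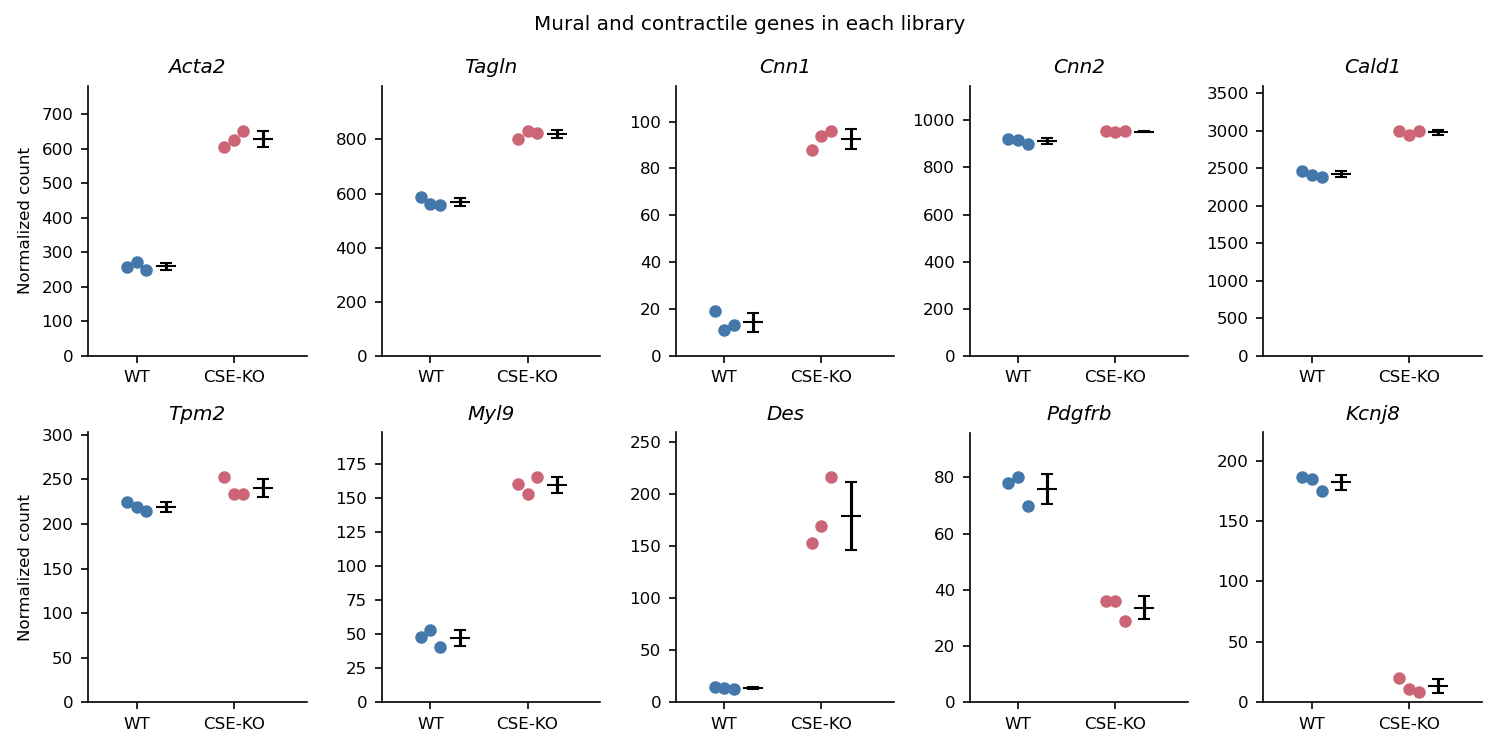
Normalized counts (vertical axes, each from 0) of the 10 genes in the 3 WT libraries (blue) and the 3 CSE-KO libraries (red), with the mean and SD of each group in black. Acta2, Cnn1, Myl9 and Des stand well above WT in every CSE-KO library, Pdgfrb and Kcnj8 stand below it, and Cnn2 and Tpm2 differ little.

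Among the genes of the thin filament, Acta2 encodes smooth muscle alpha-actin (ENSMUSG00000035783, chromosome 19 from 34241090 to 34255590 on mm10, minus strand). Its counts were 257, 271 and 249 in WT 1 to 3, against 605, 626 and 651 in CSE-KO 1 to 3. The lowest CSE-KO library was far above the highest WT library. The mean went from 259 ± 11.1 to 627 ± 23.0, a 2.42-fold rise (log2 fold change 1.27, SE 0.05, adjusted p = 2.0e-09).

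Tagln encodes transgelin (SM22 alpha), an actin-binding protein of smooth muscle (ENSMUSG00000032085, chromosome 9 from 45929619 to 45936058, minus strand). It was at 587, 563 and 556 in the WT libraries, against 803, 831 and 824 in the CSE-KO libraries. The groups did not overlap, and the mean rose 1.44-fold from 569 ± 16.3 to 819 ± 14.6 (log2 fold change 0.53, SE 0.03, adjusted p = 8.0e-08). An antisense gene, Gm48529, covers 62.4% of the exonic bases of Tagln, and was at 139, 171 and 154 in WT, against 273, 232 and 224 in CSE-KO. The library kit keeps strand, but the sources used here do not say whether the counting used it. Reads of the antisense partner may therefore be counted in, or taken from, the value of Tagln.

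The calponins did not move together. Cnn1, the form of differentiated smooth muscle (ENSMUSG00000001349, chromosome 9 from 22099216 to 22109630, plus strand), was at 19, 11 and 13 in the WT libraries, against 88, 94 and 96 in the CSE-KO libraries. It was low in every WT library and rose 6.47-fold, from 14.3 ± 4.16 to 92.7 ± 4.16 (log2 fold change 2.69, SE 0.20, adjusted p = 3.6e-07). Cnn2, a form that many non-muscle cells express (ENSMUSG00000004665, chromosome 10 from 79988584 to 79996062, plus strand), was at 923, 916 and 900 against 955, 950 and 953. Its log2 fold change was 0.06 (95% interval 0.01 to 0.12). The intervals of the calponins lay far apart, since that of Cnn1 ran from 2.24 to 3.14.

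Cald1 encodes caldesmon, which holds back the myosin motor on actin (ENSMUSG00000029761, chromosome 6 from 34598500 to 34775473, plus strand). It had the highest counts of the 10 genes, at 2466, 2418 and 2382 in WT, against 2999, 2945 and 2999 in CSE-KO. The groups were apart and the mean rose 1.23-fold (log2 fold change 0.30, SE 0.02, adjusted p = 1.3e-07). In a test against a fold of 1.2, the call of Cald1 was lost (adjusted p = 0.093). Tpm2, beta-tropomyosin (ENSMUSG00000028464, chromosome 4 from 43514711 to 43523765, minus strand), was at 225, 219 and 214 in the WT libraries, against 252, 234 and 234 in the CSE-KO libraries. Every CSE-KO library was above every WT library, yet the log2 fold change of 0.13 (95% interval 0.00 to 0.26) did not pass (adjusted p = 0.062). Tpm2 was called with equal library totals (adjusted p = 0.0073), with upper-quartile scaling (0.015) and with neither a mean trend nor robust moderation (0.041).

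Myl9, the regulatory light chain of smooth muscle and non-muscle myosin (ENSMUSG00000067818, chromosome 2 from 156775420 to 156781658, plus strand), was at 48, 53 and 41 in the WT libraries, against 160, 153 and 165 in the CSE-KO libraries. All CSE-KO libraries were about equal and far above WT. The rise was 3.37-fold, from 47.3 ± 6.03 to 159 ± 6.03 (log2 fold change 1.75, SE 0.12, adjusted p = 1.3e-07). Des, which encodes the intermediate filament protein desmin of muscle and pericytes (ENSMUSG00000026208, chromosome 1 from 75360329 to 75368579, plus strand), was at 15, 14 and 13 in the WT libraries, against 153, 169 and 216 in the CSE-KO libraries. It was the most changed of the rising members, and also the most spread within CSE-KO, where CSE-KO 3 was the highest. Its mean went from 14.0 ± 1.00 to 179 ± 32.7 (log2 fold change 3.62, SE 0.16, adjusted p = 6.5e-09). Of all 13750 tested genes, 208 rose by more than Des, 360 by more than Cnn1, 708 by more than Myl9 and 1017 by more than Acta2.

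Pdgfrb and Kcnj8 went the other way, unlike Des, although pericytes express all of these. Which cells in the libraries held the RNA of Pdgfrb and Kcnj8 was not tested. Kcnj8, the pore subunit Kir6.1 of the ATP-sensitive potassium channel of vascular cells (ENSMUSG00000030247, chromosome 6 from 142564837 to 142571614, minus strand), was at 186, 185 and 175 in the WT libraries, against 20, 11 and 9 in the CSE-KO libraries. Every CSE-KO library was far below WT, CSE-KO 1 the least so. The mean fell from 182 ± 6.08 to 13.3 ± 5.86 (log2 fold change −3.80, SE 0.25, adjusted p = 5.2e-07), and 64 of the 13750 tested genes fell by more. Pdgfrb, the receptor for PDGF-B that marks pericytes (ENSMUSG00000024620, chromosome 18, plus strand), was at 78, 80 and 70 in the WT libraries, against 36, 36 and 29 in the CSE-KO libraries. Its mean was 2.26-fold lower (76.0 ± 5.29 against 33.7 ± 4.04, log2 fold change −1.17, SE 0.15, adjusted p = 2.1e-05).

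Abcc9 encodes SUR2, the sulfonylurea receptor subunit that assembles with the product of Kcnj8. It lies beside Kcnj8 on chromosome 6, from 142587862 to 142702315 on the same strand, 16247 bases away with no other gene of the table between them. Its counts were 59, 77 and 77 in WT, against 7, 5 and 3 in CSE-KO. Like Kcnj8, it was low in every CSE-KO library, with a log2 fold change of −3.76 (SE 0.29, adjusted p = 4.5e-07) and an interval of −4.41 to −3.11, against −4.37 to −3.23 in Kcnj8. The other subunit genes of this channel family, Kcnj11 and Abcc8, were looked for by symbol and were not among the genes of the table.

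The PDGF ligand genes, which do not all act on the product of Pdgfrb, did not change in 1 direction. Of 4 genes, 2 rose, 1 fell and 1 did not pass, against 38.3% upward and 39.0% downward of all tested genes. Pdgfb, the endothelial ligand that recruits pericytes, was at 659, 657 and 637 in WT and fell to 370, 363 and 381 in CSE-KO (log2 fold change −0.81, adjusted p = 8.6e-09). Pdgfa, which acts on the alpha receptor, rose from 82.7 ± 6.51 to 442 ± 5.03 (log2 fold change 2.42, adjusted p = 4.4e-10), and Pdgfc rose from 24.7 ± 4.51 to 110 ± 10.7 (log2 fold change 2.14, adjusted p = 3.8e-07). Pdgfd was at 313 ± 19.1 and 292 ± 7.64 (adjusted p = 0.131). The alpha receptor Pdgfra, a marker of fibroblasts, was at 59, 70 and 66 against 74, 75 and 79 and did not pass (log2 fold change 0.23, 95% interval −0.03 to 0.48, adjusted p = 0.095).

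Levels of different genes were compared only per kilobase of exonic length (the union of annotated exons). In WT the order from high to low was Cnn2 (371 ± 4.79 per kb), Tagln (286 ± 8.18), Cald1 (201 ± 3.50), Acta2 (118 ± 5.07), Tpm2 (75.4 ± 1.89), Kcnj8 (71.4 ± 2.39), Myl9 (40.7 ± 5.19), Pdgfrb (13.9 ± 0.97), Cnn1 (5.24 ± 1.52) and Des (3.73 ± 0.27). Library ranges overlapped for none of these neighbours. In CSE-KO the order was Tagln (412 ± 7.33 per kb), Cnn2 (387 ± 1.02), Acta2 (286 ± 10.5), Cald1 (248 ± 2.59), Myl9 (137 ± 5.19), Tpm2 (82.5 ± 3.57), Des (47.8 ± 8.72), Cnn1 (33.9 ± 1.52), Pdgfrb (6.15 ± 0.74) and Kcnj8 (5.23 ± 2.30). Here Pdgfrb and Kcnj8 could not be ordered, since their ranges overlapped (5.29 to 6.57 and 3.53 to 7.85 per kb). Kcnj8 thus went from the middle of the order to the lowest places, shared with Pdgfrb, and Acta2 passed Cald1. No gene of the table reached 1 count per exonic base (the highest was at 0.84). Had duplicate reads been removed by position, levels of genes with many reads per base would be understated, and the highest here were those of Tagln (0.418 per base) and Cnn2 (0.388).

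Relatives of the 10 genes, listed by family and not by their values, had a median change nearer 0. Of 18 tested relatives, 8 rose, 5 fell and 5 did not pass, with a median log2 fold change of 0.03. The shares over all tested genes were 38.3% upward and 39.0% downward. The cytoplasmic actin Actb had means of 1465 ± 39.0 (WT) and 1441 ± 13.0 (CSE-KO) (log2 fold change −0.02, above 0 with equal totals and with upper-quartile scaling, adjusted p = 0.404), and Actg1 rose from 235 ± 1.00 to 276 ± 1.00. Actg2, the actin of visceral smooth muscle, rose 5.17-fold, from 15, 13 and 19 to 80, 74 and 89 (log2 fold change 2.35, adjusted p = 4.5e-07). Acta1 and Actg2 are nearly identical in sequence to Acta2 over the coding region, and the sources used here do not say how reads that match several actins were counted, so the split among actins is uncertain. Acta1 was at 2, 2 and 0 in WT, against 4, 5 and 12 in CSE-KO, under the limit for testing.

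The relatives of the other members, not all of them non-muscle forms, changed by under 1.5-fold or fell. Tagln2 went from 857 ± 7.23 to 899 ± 5.69 (adjusted p = 0.030), and this call was lost in 9 of 19 alternative settings. Cnn3 was at 971 ± 39.0 and 939 ± 8.50 (log2 fold change −0.05, adjusted p = 0.189; above 0 with equal totals and with upper-quartile scaling). The neuronal form Tagln3 fell from 32, 25 and 31 to 4, 6 and 1 (adjusted p = 0.00019). Among the tropomyosins, Tpm1 rose 1.33-fold from 1225 ± 15.7 to 1627 ± 21.2 (adjusted p = 3.6e-08) and Tpm4 rose 1.09-fold, while Tpm3 did not pass (adjusted p = 0.107). The essential light chain Myl6 rose 1.28-fold and the regulatory light chain Myl12a 1.15-fold. Myl12b, its neighbour and near copy, fell from 44.3 ± 9.07 to 25.7 ± 4.73 (adjusted p = 0.0057), and reads shared between these copies may be split or dropped. Myl6b, at 14.0 ± 3.46 and 14.7 ± 7.37, did not pass. Of the intermediate filament genes, Nes rose from 1549 ± 29.6 to 2047 ± 31.9, Vim fell from 1779 ± 58.0 to 1618 ± 25.7, and Synm, whose product binds desmin, fell from 918, 961 and 972 to 328, 242 and 247 (log2 fold change −1.82, adjusted p = 4.6e-05).

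**Figure D2:**
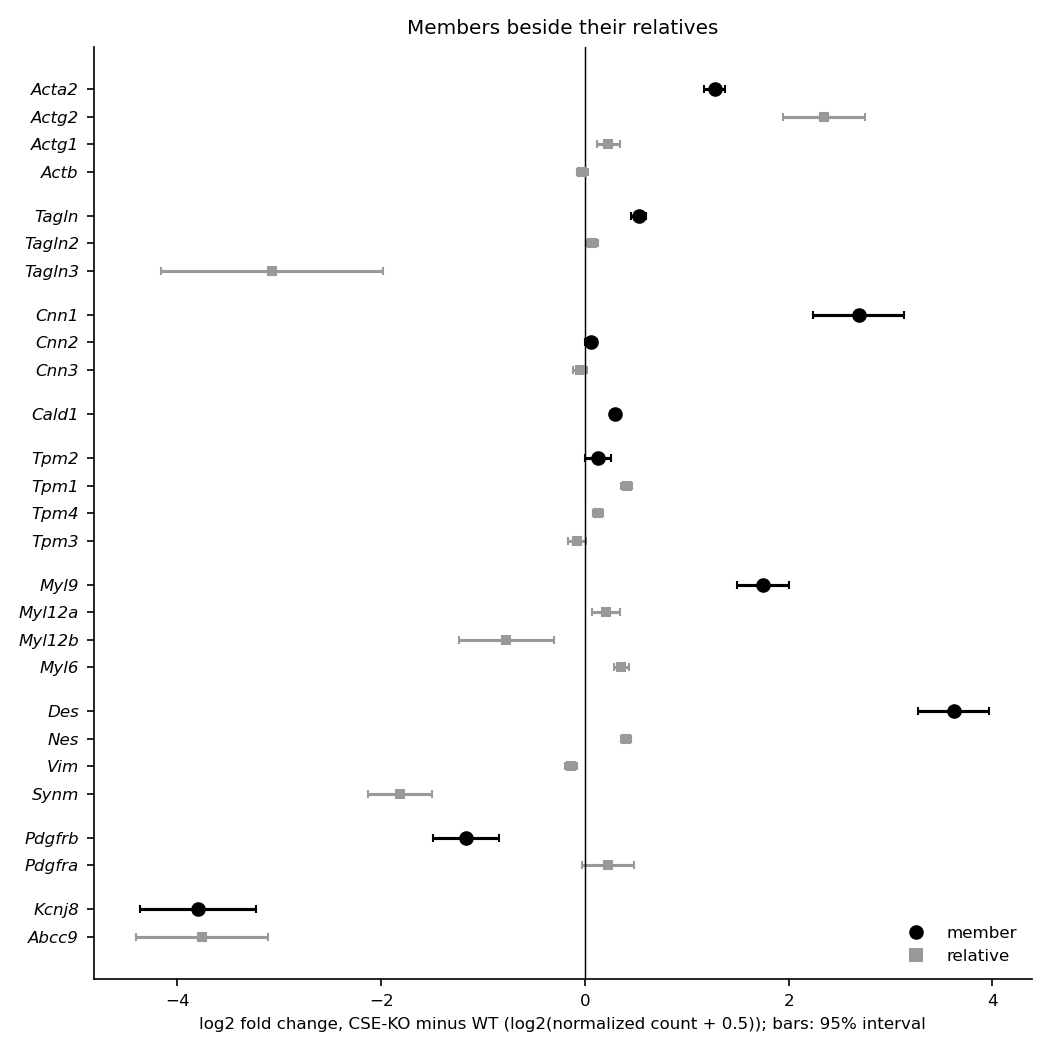
Log2 fold change (horizontal axis, CSE-KO minus WT on the log2 scale of normalized count + 0.5) with its 95% interval for the members (black circles) and their tested relatives (grey squares), grouped by family. The tested relative Myl6b is not drawn. Acta2, Cnn1, Myl9 and Des lie far right of non-muscle relatives such as Actb, Cnn3, Myl12a and Vim, Actg2 lies right of Acta2, and Kcnj8 and Abcc9 lie together at the left.

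Within families, the share of the muscle form per exonic length shows the same data as proportions. Acta2 made up 15.0%, 16.1% and 15.2% of the actin signal per kb in WT 1 to 3, against 28.2%, 29.3% and 29.6% in CSE-KO 1 to 3. Actb went from 71.6% ± 0.56 to 54.7% ± 0.99. Myl9 made up 22.5% ± 2.88 of the regulatory light chains in WT and 47.3% ± 1.23 in CSE-KO. Tagln went from 39.6% ± 0.47 to 48.7% ± 0.30 of the transgelins, and Cnn1 from 0.75% ± 0.20 to 4.64% ± 0.19 of the calponins. The share of Cnn2 (53.3% ± 0.87 and 53.0% ± 0.36) and that of Tpm2 among the tropomyosins (7.27% ± 0.04 and 7.14% ± 0.32) did not separate the groups. Of 18 shares computed, all except those of Cnn2 and Tpm2, the non-muscle forms included, had an exact permutation p of 0.1 (two-sided, n = 3 against 3, adjusted 0.112), the smallest that this design allows. Cnn2 had p = 0.6 and Tpm2 p = 0.4 in the same exact test (adjusted 0.600 and 0.424).

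**Figure D3:**
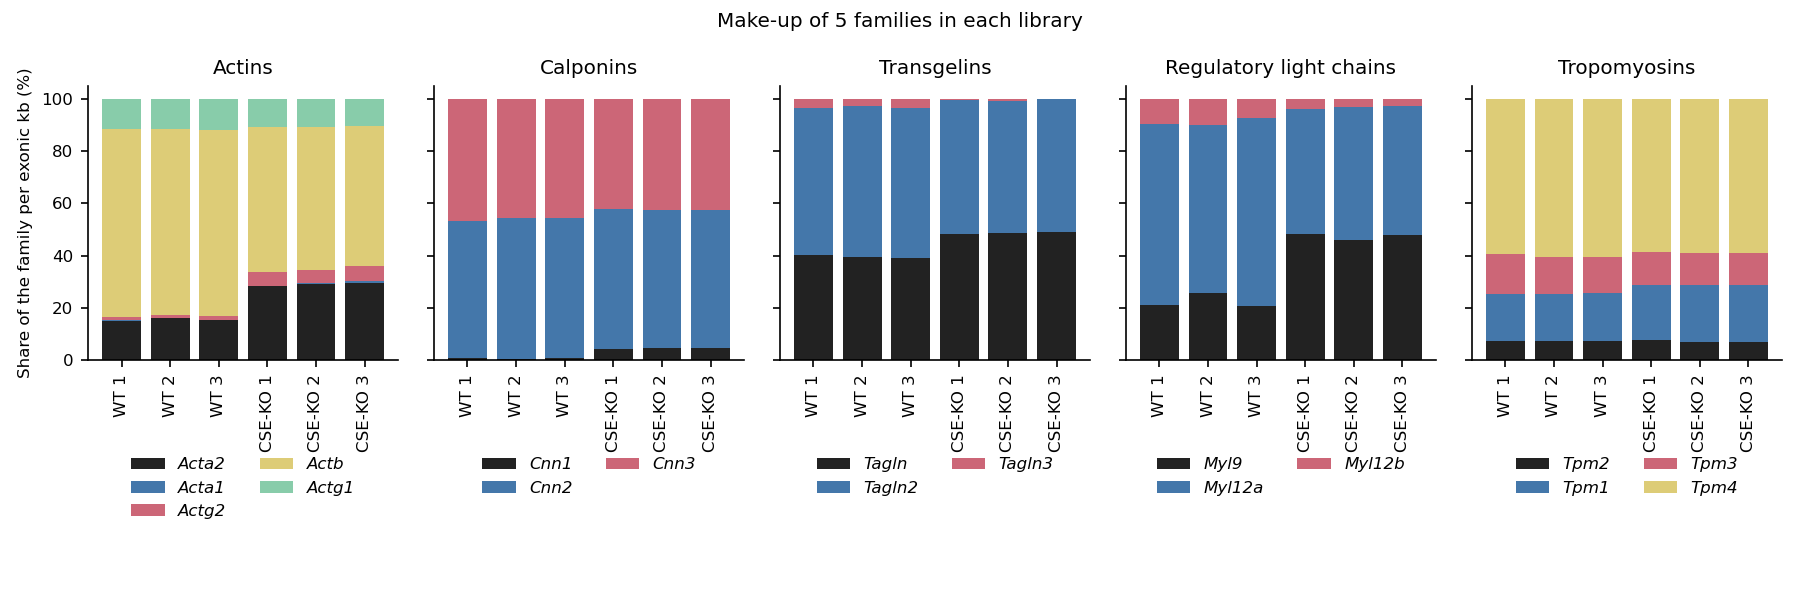
Share of each gene in its family (vertical axis, percent of the family's normalized counts per exonic kb) in each of the 6 libraries, one stacked bar per library. The black segment is the member Acta2, Cnn1, Tagln, Myl9 or Tpm2: it is larger in all CSE-KO libraries for Acta2, Cnn1, Tagln and Myl9, and about equal for Tpm2.

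Regulators of these genes were read next. Of 10 tested genes, 3 rose, 5 fell and 2 did not pass (median log2 fold change −0.06), against 38.3% upward and 39.0% downward of all tested genes. Srf, the factor that binds CArG boxes, was at 574, 545 and 601 in the WT libraries, against 615, 665 and 719 in the CSE-KO libraries (log2 fold change 0.21, SE 0.06, adjusted p = 0.0071), and its call was lost in 3 of 19 alternative settings, among them WT counted as 1 sample (adjusted p = 0.067). Its coactivator Mrtfa was at 411 ± 21.5 and 420 ± 29.2 (log2 fold change 0.03, 95% interval −0.10 to 0.16, adjusted p = 0.642), and Mrtfb fell from 709 ± 14.7 to 461 ± 13.7 (log2 fold change −0.62, adjusted p = 4.4e-08). Myocd, the muscle-restricted coactivator myocardin, was at 1, 1 and 4 in WT, against 0, 2 and 4 in CSE-KO, too low to test. The ternary complex factors, which compete with these coactivators for SRF, all fell: Elk3 from 1816 ± 16.8 to 895 ± 107, Elk4 from 963 ± 13.7 to 648 ± 25.2, and Elk1 from 326 ± 15.7 to 295 ± 4.16. The call of Elk1 (adjusted p = 0.023) was lost in 8 of 19 alternative settings, among them equal totals (adjusted p = 0.231). Fhl2, an LIM protein that binds SRF, rose 1.81-fold from 332 ± 10.8 to 602 ± 17.0, and Klf4, a repressor of smooth muscle genes, rose 1.12-fold from 1173 ± 4.36 to 1312 ± 49.2. Of the LIM protein genes, Csrp1 did not pass (log2 fold change 0.05, adjusted p = 0.134) and Csrp2 fell (−0.62, adjusted p = 3.0e-05).

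CArG boxes were looked for in the 250 bases before the gene start in RefSeq's promoter windows (GRCm38.p6, the assembly of mm10). These windows matched 8 of the 10 members with 9 windows, and Tagln was not matched. Pdgfrb could not be matched, since windows on its chromosome were left out for the members, relatives and regulators. The shares over all windows include that chromosome. The CArG box has CC, 6 bases that are A or T, and GG, which reads alike on both strands; a CArG-like match has 1 C or G among these 6 bases. A CArG box was in 1.47% of all 32851 windows and in those of Myl9 and Cnn2. A CArG-like match was in 7.24% of all windows and in those of Acta2 and Myl9. A CArG box was in 22.2% of the windows of the members, 20% of those of the relatives and 18.8% of those of the regulators. For a CArG-like match these shares were 22.2%, 30% and 6.25%, so neither kind was particular to the members. Matches of the relatives and of regulators other than Srf are not shown. The matches are shown because the rising members are textbook SRF targets, each with 10 bases on either side and the match in capitals, together with the paired boxes of Srf itself:
Acta2, 84 to 75 bases before the start (chr19:34255438-34255467, minus strand), CArG-like: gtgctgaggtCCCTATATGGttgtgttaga
Acta2, 34 to 25 bases before the start (chr19:34255388-34255417, minus strand), CArG-like: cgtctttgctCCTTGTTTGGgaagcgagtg
Myl9, 161 to 152 bases before the start (chr2:156775293-156775322, plus strand), CArG box: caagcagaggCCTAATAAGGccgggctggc
Myl9, 99 to 90 bases before the start (chr2:156775355-156775384, plus strand), CArG-like: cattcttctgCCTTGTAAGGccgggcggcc
Cnn2, 56 to 47 bases before the start (chr10:79988534-79988563, plus strand), CArG box: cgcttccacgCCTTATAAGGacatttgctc
Srf, 82 to 73 bases before the start (chr17:46556225-46556254, minus strand), CArG box: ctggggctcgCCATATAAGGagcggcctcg
Srf, 62 to 53 bases before the start (chr17:46556205-46556234, minus strand), CArG box: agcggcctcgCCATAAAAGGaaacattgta

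The size of the change did not sort the members by these matches. Cnn2, with an exact box, rose 1.04-fold, Acta2 and Myl9 rose 2.42-fold and 3.37-fold, and Des and Cnn1, with the largest rises, had neither kind of match in this window. Cald1, Tpm2 and Kcnj8 had none either. A match is a description of the letters and was not tested as a site.

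Of 21 tested genes that control contraction, 8 rose, 9 fell and 4 did not pass (median log2 fold change 0.03), near the background of 38.3% upward and 39.0% downward. The kinase gene Dapk3, whose product phosphorylates light chains, rose 1.77-fold from 398 ± 10.7 to 706 ± 22.2, and Ppp1r12a, the targeting subunit of myosin phosphatase, rose 1.41-fold from 1133 ± 9.07 to 1596 ± 64.1. The non-muscle myosin heavy chain Myh10 fell from 1913 ± 14.7 to 1233 ± 52.0, and the RhoA activator Arhgef12 from 2845 ± 15.2 to 1722 ± 90.0. The adjusted p of these 4 genes was at most 6.3e-08. Mylk, the myosin light chain kinase, chosen after its values were seen, was at 875, 883 and 870 in the WT libraries, against 391, 315 and 321 in the CSE-KO libraries (log2 fold change −1.36, adjusted p = 1.2e-06). Myl9 rose in the libraries in which the gene of its main kinase fell.

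Further smooth muscle markers rose in 5 and fell in 2 of 8 tested genes, with 1 not passing (median log2 fold change 0.46). The shares over all tested genes were 38.3% upward and 39.0% downward. Lmod1, leiomodin, which seeds actin filaments in smooth muscle, rose 2.43-fold from 22, 30 and 23 to 60, 62 and 60 (adjusted p = 3.1e-05). The integrin subunit gene Itga8 fell from 275, 328 and 313 to 53, 30 and 33 (log2 fold change −3.01, adjusted p = 3.5e-06). The other that fell was Smtn, smoothelin, also chosen after its values were seen (1695, 1702 and 1662 against 1486, 1449 and 1540). Actg2, given above, was among those that rose. Myh11, the smooth muscle myosin heavy chain and the defining marker of these cells, was near its floor at 7, 6 and 12 in WT, against 14, 18 and 26 in CSE-KO (adjusted p = 0.0085; chosen after its values were seen). Per exonic kb, its CSE-KO level was 2.54 ± 0.80, against 286 ± 10.5 for Acta2.

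Further pericyte markers fell in 4 and rose in 1 of 6 tested genes, with 1 not passing (median log2 fold change −1.27). Over all tested genes, 39.0% fell and 38.3% rose, and so few genes describe only themselves. Abcc9 and Cspg4 entered the test only through WT, and Lamc3 only through CSE-KO, so their directions were set by entry. The proteoglycan gene Cspg4 (NG2) was at 23, 24 and 22 in the WT libraries, against 1, 3 and 2 in the CSE-KO libraries (adjusted p = 1.5e-05). Cd248, endosialin, fell from 56, 62 and 68 to 16, 12 and 23 (adjusted p = 1.8e-05), as did the cation channel gene Trpc6, from 115 ± 8.72 to 72.7 ± 12.5. Abcc9, given above, was the other that fell. Lamc3, a laminin chain gene chosen after its values were seen, rose from 1, 4 and 2 to 11, 10 and 16. Rgs5, Higd1b, Cox4i2 and Vtn were looked for by symbol and were not among the genes of the table. The summed counts of the pericyte list were 281 to 319 in WT and 120 to 150 in CSE-KO.

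Focal adhesion and actin crosslinking genes, which anchor the filaments, were 10 rising and 9 falling of 22, with 3 not passing (median log2 fold change 0.06). Of the 4 with the smallest adjusted p, those that rose were Pdlim5, a scaffold on actin filaments (1.70-fold, from 1175 ± 14.7 to 2002 ± 39.6), Filip1l (from 1039 ± 16.6 to 1667 ± 32.9) and the integrin activator Fermt2 (1.29-fold), and vinculin, Vcl, fell from 2601 ± 23.8 to 1982 ± 24.6. Genes of striated muscle rose in 6 and fell in 1 of 8 tested genes, against 38.3% upward and 39.0% downward of all tested genes. Xirp2 and Myom1, among others, were under 10 in every WT library and entered the test only through CSE-KO. Their direction was set by that entry, so the count describes only the list. Ankrd1, a stretch-responsive cofactor, rose 2.24-fold from 464 ± 28.6 to 1041 ± 14.4, and Tnnc1, troponin C, from 11, 8 and 10 to 73, 70 and 74. The M-line gene Myom1 was at 6, 5 and 5 against 60, 61 and 55, and Xirp2, an actin-binding gene of muscle, at 0, 0 and 1 against 93, 114 and 106. Myl4, an atrial light chain gene chosen after its values were seen, fell from 49, 51 and 57 to 36, 28 and 34.

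Markers of other cell types moved in the same libraries, and their part in the values of the contractile genes was not tested. Their counts stand beside 38.3% upward and 39.0% downward over all tested genes. Mesothelial markers, from cells that also express contractile genes, rose in 5 of 7 tested genes and fell in none, with 2 not passing, and their summed counts were 460 to 504 in WT and 1049 to 1208 in CSE-KO. Msln was at 1, 4 and 3 in WT, against 52, 51 and 60 in CSE-KO, Upk3b at 1, 1 and 1 against 28, 43 and 47, Upk1b at 16, 32 and 17 against 168, 195 and 233, and Krt19 at 188, 182 and 186 against 524, 563 and 562. Msln and Upk3b, among others, were under 10 in every WT library and entered the test only through CSE-KO. Their direction was set by that entry, so the count of mesothelial markers describes only the list. Most of the WT sum came from Krt19 and Krt18. Krt18, chosen after its values were seen, was at 246, 259 and 283 against 233, 243 and 239 and did not pass. Lrrn4, too low to test and chosen after its values were seen, was at 0, 3 and 0 against 6, 5 and 10. Fibroblast markers rose in 1, fell in 1 and did not pass in 3 of 5 tested genes, with sums of 1168 to 1267 in WT and 1128 to 1463 in CSE-KO. Dcn rose from 74.7 ± 1.53 to 319 ± 33.6, Col3a1 fell from 156 ± 17.2 to 82.3 ± 21.6, and Col1a1 was at 571, 580 and 576 against 414, 357 and 569. Neither collagen gene rose.

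Macrophage markers rose in 11 and fell in 1 of 12 genes (38.3% and 39.0% of all tested genes). Adgre1, C1qc and Mpeg1, among others, were under 10 in every WT library and entered the test only through CSE-KO. Their direction was set by that entry, so the count of macrophage markers describes only the list. All 12 genes are in the sums below. Their sums were 956 to 984 in WT and 1473 to 1684 in CSE-KO. Adgre1 had no count in WT against 36, 62 and 56 in CSE-KO, C1qc 0, 0 and 1 against 63, 83 and 81, Mpeg1 6, 7 and 9 against 173, 282 and 231, and Lyz2 23, 33 and 37 against 408, 466 and 439. Cd14, chosen after its values were seen, was the one that fell, from 788, 775 and 775 to 315, 216 and 187. Because Cd14 made up most of the WT sum, the sums do not follow the genes that rose. Endothelial markers fell in 10 of 12 genes (39.0% of all tested genes) and rose in none (38.3%), with 2 not passing. Their sums were 17980 to 18376 in WT and 12431 to 13110 in CSE-KO. Pecam1 fell from 2314 ± 22.9 to 1879 ± 5.86, Erg from 1196 ± 0.58 to 841 ± 20.3, Tie1 from 2291 ± 37.1 to 1264 ± 77.6 and Tek from 862 ± 23.0 to 292 ± 29.0. Pecam1 and Cdh5 were high in all 6 libraries (Cdh5 at 2829 ± 17.8 and 2673 ± 6.43), and Vwf was near the floor (1, 5 and 10 against 12, 9 and 17). Cdh5 was among the least changed of the list. Kdr fell from 2143 ± 26.2 to 980 ± 76.6, and Cldn5 from 808 ± 13.3 to 284 ± 73.1. Cdh5, Vwf, Kdr and Cldn5 were chosen after their values were seen. Of 7 epithelial markers, Epcam and Cdh1 were at 0 to 3 in every library and the others were not among the genes of the table.

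**Figure D4:**
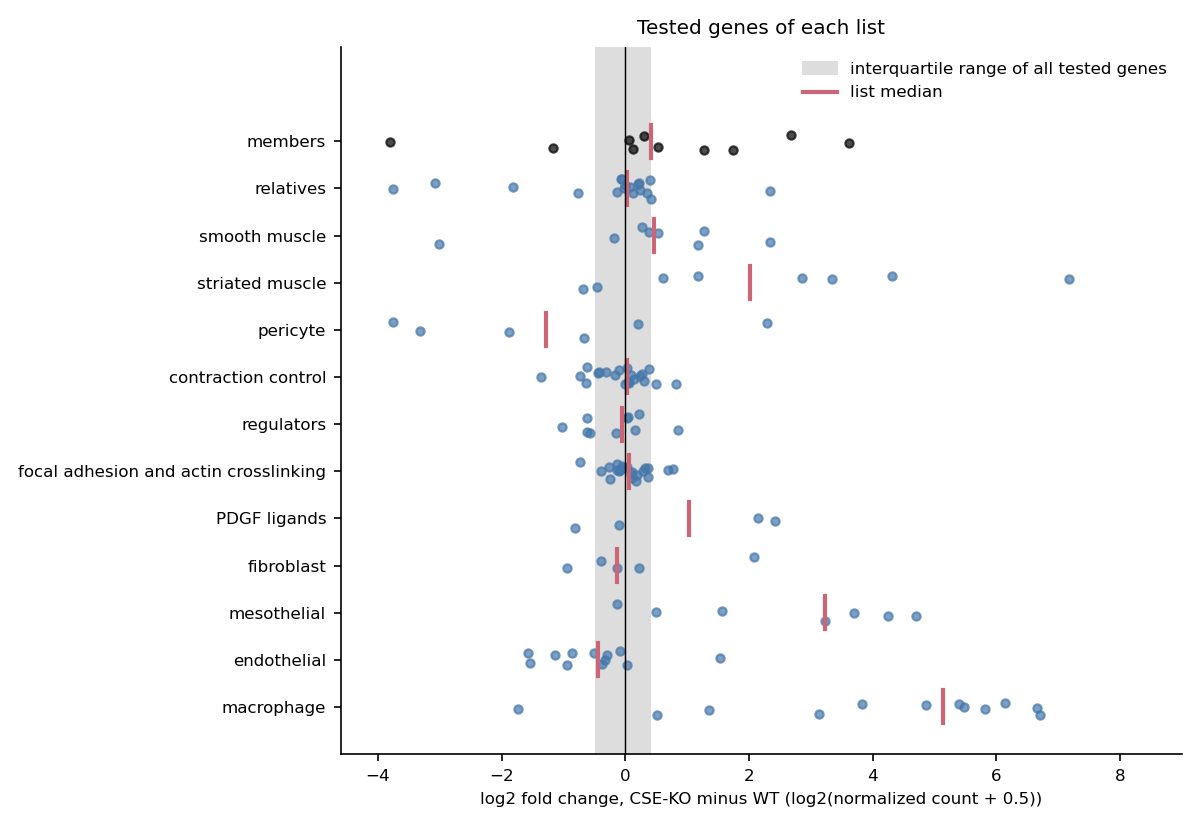
Log2 fold change (horizontal axis, CSE-KO minus WT on the log2 scale of normalized count + 0.5) of each tested gene in 13 lists, with the list median as a red bar and the interquartile range of all tested genes (−0.47 to 0.40) in grey. Smooth muscle markers lie mostly right of 0 (median 0.46), pericyte markers mostly left (median −1.27), and mesothelial markers far right (median 3.23), while contraction control, focal adhesion and regulator genes centre near 0.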

How the data were processed

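Per the labels' protocols, stranded mRNA libraries were made from 300 ng of total RNA and read as 75 bp single ends. The submitters' processing notes name Trimmomatic 0.39, STAR 2.7.3a, Picard 2.21.7, featureCounts 1.6.5, DESeq2 1.26.0 and the build mm10, with no role or order. The table the authors deposited holds a whole-number score per gene and library, read as a rounded normalized count because recomputed median-ratio size factors lay between 1.0026 and 1.0083. Genes that reached 10 in 3 or more libraries entered the test, limma 3.58.1 in R 4.3.3, on log2(value + 0.5), with a linear model of group, a mean trend and robust moderation, and were called at an adjusted p under 0.05. The model was also run on simulated counts, with the same small extra spread in every library and few changed genes. These data differ in both, so that run does not show how reliable the calls are. A gene under 10 throughout a group entered only through the other group, so its direction was set by entry. Fold changes on this scale understate the change of low genes. Exonic lengths came from GENCODE release 21. Folds are ratios of group means.

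The members, gene lists and tests were chosen with earlier results of these data known. Genes named were the members, their relatives, their regulators, the 4 tested genes of each other list with the smallest adjusted p, and Cth. One gene that this rule names is not reported here. Light chain shares used the regulatory chains only. Replicate numbers did not pair libraries (correlations of same-numbered deviations were −0.001, 0.02 and 0.011). Alternatives covered scaling, filters, pseudocounts, moderation, merged or left-out libraries and a correction for shared start positions.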

Additional observations from a re-analysis of the deposited data

How the results depend on the processing

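Over 19 alternative settings, Acta2, Tagln, Cnn1, Myl9, Des, Kcnj8 and Pdgfrb kept their direction and their call, with log2 fold changes of 1.25 to 1.42, 0.51 to 0.66, 2.36 to 2.90, 1.65 to 1.83, 3.26 to 3.73, −4.13 to −3.40 and −1.23 to −1.07. Cald1 lost its call in 1 setting (a test against a fold of 1.2), Cnn2 in 12, and Tpm2 gained one in 3. Leaving out each library in turn gave 10137 to 10636 called genes, 6 rising members and 2 falling members in each case. With the replicate block, 10440 genes, 6 rising and 2 falling members were called. With WT counted as 1 sample the members called were 6 and 2, and with CSE-KO 2 and 3 also merged they were 6 and 2. In both fits the spread comes from the CSE-KO libraries alone and the lone WT sample is assumed to vary like them, so they do not show that the calls are stable. The test against a fold of 1.2 called 6711 of all tested genes, with 5 rising and 2 falling members.

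Signs near 0 turned in Actb (0.0498 with equal totals, 0.0256 with upper-quartile scaling), Cnn3 (0.0256 and 0.00133) and Myl6b (0.0595, 0.0361 and, at a pseudocount of 5, 0.00355). Without 1 library, Myl6b ran from −0.38 to 0.27 and Mrtfa from −0.0264 to 0.0679. The correction for shared start positions raised the log2 fold change of Acta2 to 1.42 and of Tagln to 0.66. In the family shares, the difference (CSE-KO minus WT, in percentage points) for Cnn2 turned to 0.49 under that correction, where Tagln moved to 10.5 and Cnn1 to 3.24. Without division by length, Acta2 moved to 12.7, Tagln to 8.50 and Myl9 to 14.6. Leaving out 1 library gave 13.3 to 14.0 for Acta2, 8.82 to 9.27 for Tagln, 3.81 to 4.00 for Cnn1, −0.784 to 0.0541 for Cnn2, 23.9 to 26.5 for Myl9 and −0.32 to −0.03 for Tpm2. Of 1247 values for 66 other genes, 1194 kept direction and call. Raw counts were not used here, so depth is known only through the normalized totals.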
